A study of Mus musculus with 15 samples.

Results

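The genes described here are 9 genes of the Nodal and activin branch of TGF-beta signalling: the ligand genes Nodal, Gdf3, Inhba and Inhbb, the coreceptor gene Tdgf1, the secreted inhibitor genes Lefty1, Lefty2 and Fst, and the intracellular inhibitor gene Smad7. They were chosen by symbol from the 23412 genes counted in every library of a polyA RNA-seq series on mouse embryonic stem cells (mESCs), and 8 of the 9 were among the 14508 genes with enough counts to be tested. Inhba was the member with too few counts. The series asked what loss of STAG1, STAG2 or both does to gene expression. STAG1 and STAG2 are alternative subunits of cohesin, the ring-shaped complex that holds DNA loops and sister chromatids. All 15 libraries were made from v6.5 mESCs that had been given 50 nM of an siRNA and harvested after 48 h, with 3 replicates in each of 5 conditions. These were wild-type cells with the non-targeting siGLO control, Stag1-/- cells with siGLO, Stag2-/- cells with siGLO, wild-type cells with an siRNA pool against Stag1 (siStag1), and Stag2-/- cells with siStag1. Each knockout genotype was 1 CRISPR clone, so that a difference due to the genotype and one due to the clone cannot be told apart, and nothing in the labels says that replicates came from separate derivations. The p-values therefore measure the spread between these libraries only.

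Nodal, activins and GDF3 bind type I and type II activin receptors, which phosphorylate SMAD2 and SMAD3. These join SMAD4 and partners such as FOXH1 to switch on target genes, among them Nodal itself and both Lefty genes. NODAL and GDF3 need the coreceptor CRIPTO, the product of Tdgf1, whereas activins signal without it. An activin is a dimer of inhibin beta chains, with Inhba encoding the beta A chain and Inhbb the beta B chain. LEFTY1 and LEFTY2 are secreted feedback inhibitors of NODAL, follistatin (Fst) binds and blocks activins, and SMAD7 blocks activated type I receptors inside the cell. In the mouse embryo this pathway patterns the epiblast and drives the formation of mesoderm and endoderm, and mESCs in culture express many of its components.

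The positions of the members are those of GENCODE M21 on mm10, the build of the alignment. Inhbb (chr1:119415465-119422248, minus strand), Lefty2 (chr1:180893108-180899103, plus strand) and Lefty1 (chr1:180935022-180938400, plus strand) lie on chromosome 1. Nodal lies at chr10:61417972-61425338 on the plus strand, Gdf3 at chr6:122605403-122610087 on the minus strand, and Tdgf1 at chr9:110939603-110946158 on the minus strand. Inhba (chr13:16011851-16031621, plus strand) and Fst (chr13:114452290-114458951, minus strand) are far apart on chromosome 13. All 9 are protein-coding genes. The values count reads over the exons of the whole gene and do not separate coding from untranslated parts.

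Lefty1 and Lefty2 are neighbours, 35918 bp apart, and near copies of each other, so the reads that tell them apart had to be checked before their counts were compared. Their coding sequences of 1104 bp each matched at 1014 positions (91.8% identity). The 60-base coding window with the most differences lies in exon 1, at chr1:180935143-180935202 in Lefty1 and chr1:180893217-180893276 in Lefty2, and holds 18 differing bases. It is printed with the differing bases in capitals, as the kind of stretch by which a read is assigned.
Lefty1, exon 1: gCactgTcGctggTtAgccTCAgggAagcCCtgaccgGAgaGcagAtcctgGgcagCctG
Lefty2, exon 1: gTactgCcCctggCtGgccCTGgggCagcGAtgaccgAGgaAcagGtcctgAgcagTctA
Each of the 955 coding windows of 150 bases, the read length, held at least 1 difference, with a median of 5. Over all annotated transcripts, those with a retained intron included, 0.747% of the 150-base stretches of Lefty1 and 0.488% of those of Lefty2 occurred in the other gene. Tdgf1 shared 0.181% of its stretches with the pseudogene Tdgf1-ps1, and the other 6 members shared no stretch with another gene.

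Between 14982560 and 19070126 counts per library fell on genes, and the detection limit of 3 counts corresponded to a normalized count of 2.71 to 3.49. A normalized count is the raw count after scaling for library size and TMM factor, expressed at a common depth of 17373740, and the limit covers counting error only. The targeted genes were as labelled where the counts can show it. Stag2 fell in Stag2-/- siGLO (log2 fold change -1.75) and Stag2-/- siStag1 (-1.36) against wild-type siGLO, and Stag1 fell in wild-type siStag1 (-2.28) and Stag2-/- siStag1 (-1.63). The Stag1-/- clone carries an in-frame deletion, and its Stag1 counts of 1822, 2364 and 1871 against 2283, 2133 and 2008 in wild-type siGLO do not check its label. All 7 pluripotency markers (Pou5f1, Sox2, Nanog, Zfp42, Esrrb, Klf4 and Dppa5a) were present, with a summed normalized count of 78236 to 83860 in wild-type siGLO, 60010 to 71215 in Stag1-/-, 54576 to 68708 in Stag2-/-, 69885 to 73597 in wild-type siStag1 and 36065 to 44869 in Stag2-/- siStag1, where all 7 fell. Of 6 primitive endoderm markers, all 6 fell in each condition that carries a knockout, and their sum was 3942 to 4354 in wild-type siGLO, 328 to 529 in Stag1-/-, 728 to 1164 in Stag2-/-, 3864 to 4349 in wild-type siStag1 and 862 to 1131 in Stag2-/- siStag1. Of 4 formative epiblast markers (Fgf5, Otx2, Dnmt3b and Pou3f1), 3 rose in Stag1-/- and 4 in Stag2-/- and in Stag2-/- siStag1, with sums of 4772 to 6413 in wild-type siGLO and 6711 to 8759 in wild-type siStag1 against 9277 to 12623, 14008 to 17591 and 17318 to 24249. The sum of 7 primitive streak markers was 245 to 428.7 in all libraries but 2. Replicates 2 and 3 of Stag2-/- siGLO stood apart at 1199 and 589, against 294 in replicate 1, and 3 of the 6 tested streak markers rose and 1 fell in Stag2-/- and in Stag2-/- siStag1. Fgf8 was 38.0, 524 and 338 in replicates 1, 2 and 3 of Stag2-/- siGLO and carried the rise of the sum in replicate 3. Of the other streak markers, T (80.2 and 35.8) and Eomes (114 and 95.9) were higher in replicate 1 than in replicate 3. Wnt3 (38.0 and 47.4), Mixl1 (15.8 and 33.7), Gsc (6.34 and 32.7) and Mesp1 (1.06 and 5.27) were lower. The sum of 7 fibroblast markers was 294 to 552 in wild-type siGLO, 406 to 569 in Stag1-/-, 326 to 645 in Stag2-/-, 287 to 361 in wild-type siStag1 and 384 to 448 in Stag2-/- siStag1. Col1a1 (88.4 to 333), Col1a2 (56.0 to 156) and Thy1 (76.7 to 153) were present in every library, and Lum was at 3 counts or fewer in each. Against wild-type siGLO, 1 of the 4 tested fibroblast markers, Col3a1, rose in Stag2-/- and in Stag2-/- siStag1, where it was highest in replicate 1 (96.1 and 84.6, against 8.43 to 21.8 in the other replicates and 4.67 to 14.5 in wild-type siGLO). In such bulk libraries fewer cells of a type and less RNA per cell cannot be told apart, and the part of these markers in the results below was not tested.

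Genes were called at an adjusted p under 0.1 in edgeR's quasi-likelihood test, fitted over all 15 libraries. Against wild-type siGLO, 4 of the 8 tested members were called in Stag1-/-, where 20% of all tested genes were, 4 in Stag2-/- (28.3% of all tested genes), 0 in wild-type siStag1 (0.248%) and 6 in Stag2-/- siStag1 (43.9%). The replicates of a condition did not overlap with those of wild-type siGLO for 5 of the 8 members in Stag1-/-, 2 in Stag2-/-, 2 in wild-type siStag1 and 4 in Stag2-/- siStag1, beside 31.7%, 35.7%, 15.5% and 47.3% of all tested genes. The median log2 fold change of the 8 members was 0.12, 0.34, 0.00044 and 0.24 in these comparisons, beside -0.013, 0.0070, -0.0017 and 0.0055 over all tested genes. These 4 comparisons share the wild-type siGLO libraries. Within the count of 0 for wild-type siStag1, Inhbb was the member that DESeq2, a fit without an expression filter and one in which the replicate number was a block did call. The comparison had 922 genes at an unadjusted p under 0.05, of which 36 were called, and DESeq2 called 133 genes and the blocked fit 236. The blocked fit also called more genes in Stag1-/- (4443, against 2907 without the block). Between the clones 3 of the 8 members were called, with 2 higher and 1 lower in Stag1-/-, beside 25.7% of all tested genes (12.7% higher and 12.9% lower), and 3 did not overlap (31% of all tested genes). In Stag2-/- cells siStag1 lowered 2 of the 8 and raised 0, beside 3.39% and 2.98%, and 4 did not overlap (19.3%). That comparison had 924 called genes, and 2049 with the replicate block, whose same-numbered libraries deviated together. Between Stag1-/- and wild-type siStag1, 2 members were higher in the knockout and 1 was lower, beside 8.22% and 7.82%, and 5 did not overlap (32.4%). In the test of the difference between the siRNA effects, 1 of the 8 was called lower and 0 higher, beside 0.138% and 0.0207% of all tested genes.

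Levels can be compared between genes only per length. Per kilobase of exon, wild-type siGLO cells held a mean normalized count of 9198 ± 585 (SD, n = 3) of Tdgf1, 1360 ± 329 of Lefty1, 633 ± 141 of Gdf3, 626 ± 108 of Lefty2, 507 ± 60.4 of Smad7, 462 ± 47.3 of Nodal, 350.4 ± 38.3 of Inhbb, 11.9 ± 4.32 of Fst and 0.156 ± 0.159 of Inhba.

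**Figure D1:**
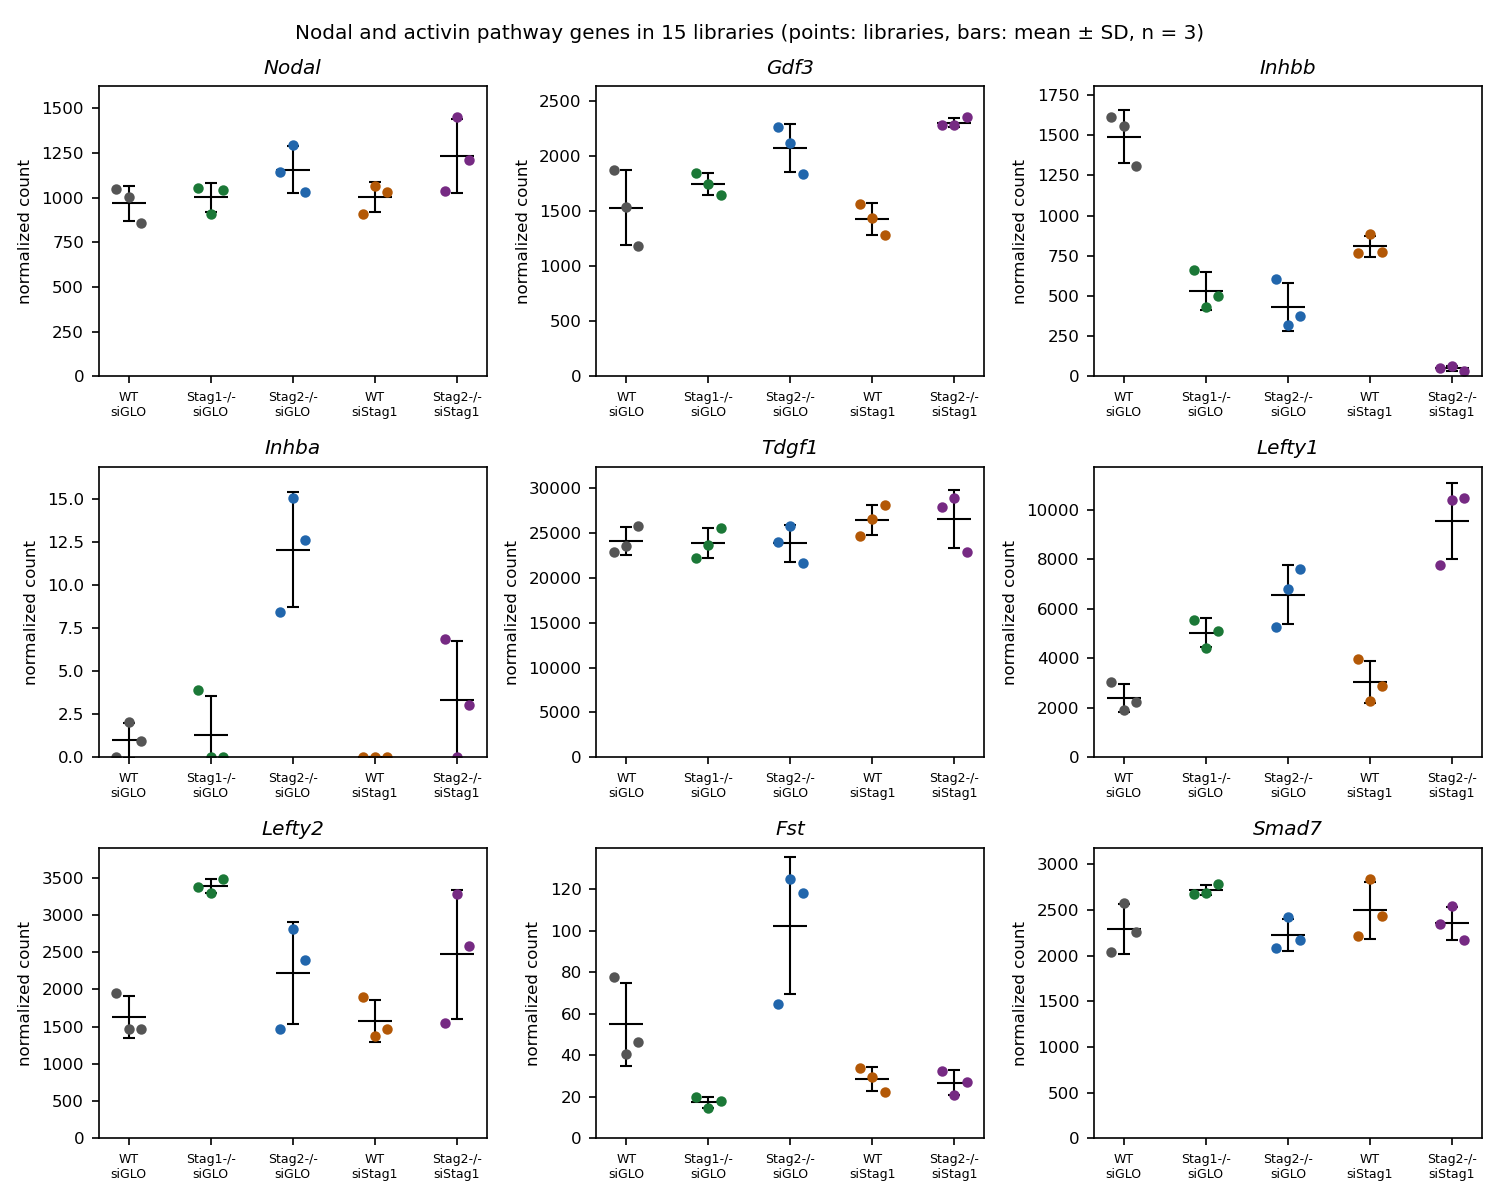
Normalized counts of the 9 members (vertical axis, from 0, a scale for each gene) in the 15 libraries by condition (horizontal axis). Coloured points are libraries, and black bars are the mean ± SD of 3 replicates. Inhbb lies between 34.3 and 64.4 in Stag2-/- siStag1, below the 1306 to 1612 of wild-type siGLO, while Lefty1 is highest there at 7794 to 10482.

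Inhbb, the activin beta B chain, was lower in both clones and furthest down where STAG1 was depleted in Stag2-/- cells. Normalized counts of Inhbb were 1612, 1554 and 1306 in replicates 1, 2 and 3 of wild-type siGLO, 661, 429 and 502 in Stag1-/-, and 603, 319 and 373 in Stag2-/-. It was 770.0, 885 and 770.3 in wild-type siStag1 and 50.2, 64.4 and 34.3 in Stag2-/- siStag1. The conditions thus fell into an order without overlap from wild-type siGLO over wild-type siStag1 to the knockouts and then to Stag2-/- siStag1, and only the 2 knockouts overlapped with each other. Inhbb fell 2.81-fold in Stag1-/- (log2 fold change -1.49, SE 0.21, adjusted p = 0.000168 in edgeR's quasi-likelihood test) and 3.45-fold in Stag2-/- (-1.79, SE 0.21, adjusted p = 3.52e-05). The log2 difference between the clones was 0.30 (95% interval -0.15 to 0.74, adjusted p = 0.351), which did not pass the threshold. Without Stag2-/- replicate 1, the highest of its group, it was 0.62 and passed (adjusted p = 0.0297). In Stag2-/- siStag1 Inhbb fell 30.0-fold against wild-type siGLO (log2 fold change -4.91, SE 0.26, adjusted p = 2.94e-09).

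Inhbb was also the member on which the siRNA had a different effect in each genotype. Within Stag2-/- cells siStag1 lowered it 8.70-fold (log2 fold change -3.12, SE 0.26, adjusted p = 2.97e-06 in edgeR's quasi-likelihood test), where 6.37% of all tested genes were called. Within wild-type cells the log2 fold change was -0.88 (SE 0.20, adjusted p = 0.151), with no overlap between the groups. Libraries with the same replicate number deviated together in this comparison, and with the replicate block Inhbb was called (-0.87, adjusted p = 0.0149). Pair by pair, the log2 ratio of siStag1 to siGLO was -1.07, -0.81 and -0.76 for replicates 1, 2 and 3 of wild-type cells and -3.59, -2.31 and -3.44 for those of Stag2-/- cells. Each of the 3 pairs in Stag2-/- cells thus changed more than each of the 3 in wild-type cells. The difference between these siRNA effects was -2.24 (SE 0.33, adjusted p = 0.00979), and Inhbb was 1 of 8 members called in this test, beside 0.159% of all tested genes. It was called with each of the 12 libraries of this contrast left out in turn. Knockout and siRNA against Stag1 can be set side by side as well. Inhbb was lower in Stag1-/- than in wild-type siStag1 (log2 fold change -0.61, adjusted p = 0.0729, where 16% of all tested genes were called), but this call held in only 1 of the 6 fits that left out a library, with log2 fold changes of -0.79 to -0.48.

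Inhba, the beta A chain, was near the limit of detection outside Stag2-/- siGLO. Its raw counts were 0, 2 and 1 in wild-type siGLO, 4, 0 and 0 in Stag1-/-, 8, 14 and 12 in Stag2-/- siGLO, 7, 0 and 3 in Stag2-/- siStag1, and 0 in all 3 libraries of wild-type siStag1. Stag2-/- siGLO thus stood above every other library. Its 34 summed counts were 12.4 times the 3 of wild-type siGLO after scaling to library size (95% exact interval 3.9 to 63.1, counting error only), 9.49 times the 4 of Stag1-/- (3.39 to 36.8) and 3.57 times the 10 of Stag2-/- siStag1 (1.73 to 8.11). In the fit without an expression filter, Inhba was called in Stag2-/- siGLO against wild-type siGLO (adjusted p = 0.0339 in edgeR's quasi-likelihood test), and it was lower in Stag1-/- than in Stag2-/- siGLO (adjusted p = 0.0518). Between Stag2-/- siStag1 and Stag2-/- siGLO it was not called in that fit (log2 fold change -1.83, 95% interval -3.70 to 0.046, adjusted p = 0.389). Even in Stag2-/- siGLO Inhba was scarce: its 8 to 14 counts per library compare with 297 to 571 of Inhbb over a gene with fewer exon bases. Replicates 2 and 3, with the higher Inhba counts, are the libraries with the high primitive streak marker sums. In replicate 3 that sum was carried by Fgf8 (338, against 38.0 in replicate 1), and the other streak markers went in both directions. Whether streak cells had a part in the Inhba result was not tested.

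Nodal, the ligand that names the pathway, was called against wild-type siGLO in 1 of the 4 conditions. Its normalized count was 1046, 1002 and 857 in wild-type siGLO, 1052, 908 and 1042 in Stag1-/-, 1140.4, 1295 and 1032 in Stag2-/-, 911, 1067 and 1030.0 in wild-type siStag1, and 1035, 1450.1 and 1210.0 in Stag2-/- siStag1. Every condition overlapped with the next in the order of means. Nodal rose 1.27-fold in Stag2-/- siStag1 (log2 fold change 0.35, SE 0.13, adjusted p = 0.0400 in edgeR's quasi-likelihood test), a call lost without wild-type siGLO replicate 3 (0.26) or without Stag2-/- siStag1 replicate 2 (0.21). The log2 fold change was 0.25 in Stag2-/- (95% interval -0.010 to 0.52, adjusted p = 0.163), 0.05 in Stag1-/- (-0.22 to 0.31) and 0.05 in wild-type siStag1 (-0.21 to 0.32), none of them called.

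Gdf3, a ligand that acts through CRIPTO as Nodal does, rose in both Stag2-/- conditions. Normalized counts of Gdf3 were 1871, 1541 and 1188 in wild-type siGLO, 2267, 2117 and 1833 in Stag2-/-, and 2280.0, 2281 and 2354 in Stag2-/- siStag1. It was 1844, 1745 and 1647 in Stag1-/- and 1568, 1436 and 1281 in wild-type siStag1. Wild-type siGLO was the most scattered group and overlapped with each condition except Stag2-/- siStag1. Gdf3 rose 1.35-fold in Stag2-/- (log2 fold change 0.43, SE 0.13, adjusted p = 0.0270) and 1.5-fold in Stag2-/- siStag1 (0.59, SE 0.13, adjusted p = 0.00224 in edgeR's quasi-likelihood test). The former was lost without wild-type siGLO replicate 3 (0.28), and the latter held in all 6 fits without a library. In Stag1-/- the log2 fold change was 0.19 (adjusted p = 0.386), but 0.35 with a call without wild-type siGLO replicate 1 (adjusted p = 0.0823 in edgeR's quasi-likelihood test), over 0.032 to 0.35 in the 6 fits without a library. The clones differed by -0.25 (Stag1-/- minus Stag2-/-, adjusted p = 0.200), a difference that was called with the replicate block (-0.24, adjusted p = 0.0573), and libraries with the same number deviated together in that comparison.

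Tdgf1, the coreceptor gene, was the most abundant member per length in wild-type siGLO and was not called in any of the 8 comparisons. Its normalized count ranged from 22939 to 25853 in wild-type siGLO, 22280.3 to 25623 in Stag1-/-, 21677 to 25809 in Stag2-/-, 24719.9 to 28097 in wild-type siStag1 and 22944 to 28911 in Stag2-/- siStag1. All 5 ranges overlapped. The log2 fold changes against wild-type siGLO had 95% intervals of -0.22 to 0.19 in Stag1-/-, -0.22 to 0.19 in Stag2-/-, -0.07 to 0.34 in wild-type siStag1 and -0.07 to 0.35 in Stag2-/- siStag1. The last of these changes, 0.14 (adjusted p = 0.278), was 0.24 with a call without Stag2-/- siStag1 replicate 3 (adjusted p = 0.0758 in edgeR's quasi-likelihood test).

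**Figure D2:**
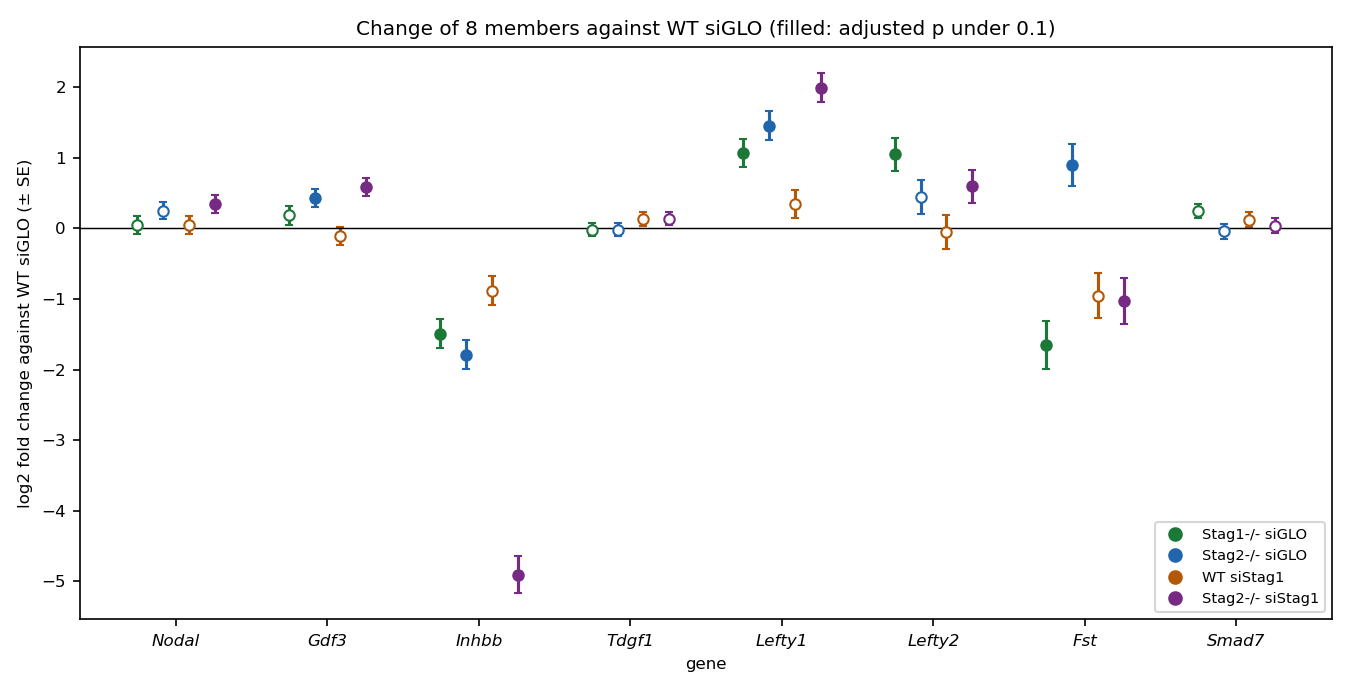
Log2 fold change against wild-type siGLO (vertical axis) of the 8 tested members (horizontal axis) in 4 conditions (colours), with SE bars. Filled points have an adjusted p under 0.1. Inhbb is the member with the lowest point, -4.91 in Stag2-/- siStag1, and Lefty1 the one with the highest, 2.00 in the same condition.

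Lefty1, a feedback inhibitor of NODAL, was higher in both clones and highest where STAG1 was also depleted. The libraries held normalized Lefty1 counts of 3027, 1898 and 2247 in wild-type siGLO, 5567, 4401 and 5123 in Stag1-/-, 5284, 6817 and 7629 in Stag2-/-, 3958, 2274 and 2871 in wild-type siStag1, and 7794, 10397 and 10482 in Stag2-/- siStag1. Every library with a knockout lay above all 6 wild-type libraries, and every Stag2-/- siStag1 library above the rest. Lefty1 rose 2.10-fold in Stag1-/- (log2 fold change 1.07, SE 0.20, adjusted p = 0.00190), 2.75-fold in Stag2-/- (1.46, SE 0.20, adjusted p = 0.000143) and 4.0-fold in Stag2-/- siStag1 (2.00, SE 0.21, adjusted p = 2.34e-06 in edgeR's quasi-likelihood test). The effect of siStag1 alone was 0.34 in wild-type cells (adjusted p = 0.916) and 0.54 in Stag2-/- cells (SE 0.20, adjusted p = 0.162), and the difference between them was 0.20 (95% interval -0.40 to 0.79, adjusted p = 0.999). In Stag2-/- cells the groups did not overlap, beside 19.3% of all tested genes, and with the replicate block, in a comparison whose same-numbered libraries deviated together, the change passed (0.54, adjusted p = 0.0692). It also passed without Stag2-/- siStag1 replicate 1 (0.67, adjusted p = 0.0679). The clones differed by -0.39 (Stag1-/- minus Stag2-/-, adjusted p = 0.191). Without Stag2-/- replicate 1, the lowest of its group, this was -0.52 and passed (adjusted p = 0.0927).

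Lefty2 did not follow its neighbour in every condition. Its normalized count was 1958, 1467 and 1475 in wild-type siGLO, 3378, 3292 and 3482 in Stag1-/-, 1462, 2810 and 2392 in Stag2-/-, 1897, 1378 and 1463 in wild-type siStag1, and 1554, 3277 and 2581 in Stag2-/- siStag1. The 3 Stag1-/- libraries lay above all others, whereas replicate 1 of both Stag2-/- conditions lay within the range of the 6 wild-type libraries. Lefty2 rose 2.07-fold in Stag1-/- (log2 fold change 1.05, SE 0.24, adjusted p = 0.00728 in edgeR's quasi-likelihood test). It was 0.44 in Stag2-/- (SE 0.24, adjusted p = 0.202), and 0.67 with a call without Stag2-/- replicate 1 (adjusted p = 0.0384). It rose 1.51-fold in Stag2-/- siStag1 (0.60, SE 0.24, adjusted p = 0.0602), but this call held in only 2 of the 6 fits without a library, over log2 fold changes of 0.34 to 0.84. Lefty2 was higher in Stag1-/- than in Stag2-/- (0.61, SE 0.24, adjusted p = 0.0853, where 25.7% of all tested genes were called), and that call held in 1 of 6 fits without a library, over 0.38 to 0.81. With siStag1 in wild-type cells the log2 fold change was -0.05 (adjusted p = 0.999), and Stag1-/- was above wild-type siStag1 for Lefty2 (1.10, SE 0.24, adjusted p = 0.00662) and Lefty1 (0.73, SE 0.20, adjusted p = 0.0266). The latter was lost without Stag1-/- replicate 1 (0.65) or wild-type siStag1 replicate 2 (0.56). The primitive streak marker sums of replicates 1, 2 and 3 were 294, 1199 and 589 in Stag2-/- siGLO and 270.5, 428.7 and 415 in Stag2-/- siStag1. In both conditions replicate 1 thus had the lowest sum and the lowest Lefty2 count. The order of the sums was largely that of Fgf8, at 38.0, 524 and 338 in Stag2-/- siGLO and 59.0, 233 and 217 in Stag2-/- siStag1. Fgf8, Mixl1 and Gsc were lowest in replicate 1 of both conditions, whereas T, Eomes, Wnt3 and Mesp1 were not.

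Added over both Lefty genes, which removes any effect of how shared reads were divided, the normalized count was 4024 ± 851 (SD, n = 3) in wild-type siGLO, 8415 ± 647 in Stag1-/-, 8798 ± 1788 in Stag2-/-, 4613 ± 1128 in wild-type siStag1 and 12029 ± 2341 in Stag2-/- siStag1. The sum rose 2.09-fold in Stag1-/- (log2 fold change 1.06, SE 0.19, adjusted p = 0.0015), 2.19-fold in Stag2-/- (1.13, SE 0.19, adjusted p = 0.000799) and 2.99-fold in Stag2-/- siStag1 (1.58, SE 0.20, adjusted p = 1.5e-05 in edgeR's quasi-likelihood test). Between the clones the sum differed by -0.06 (95% interval -0.47 to 0.34, adjusted p = 0.851). The makeup of the sum was not alike. The ratio of Lefty1 to Lefty2 counts, a measure chosen after the data were seen, was 1.55, 1.29 and 1.52 in wild-type siGLO and 1.65, 1.34 and 1.47 in Stag1-/-. It was 3.61, 2.43 and 3.19 in Stag2-/-, 2.09, 1.65 and 1.96 in wild-type siStag1, and 5.02, 3.17 and 4.06 in Stag2-/- siStag1. Wild-type siGLO and Stag1-/- overlapped, and the ratios of the other conditions lay above both of these, wild-type siStag1 only just. The exact two-sided permutation test gave p = 0.9 for Stag1-/- and p = 0.1 for each of the other 3 conditions against wild-type siGLO, p = 0.1 between the clones and p = 0.3 for siStag1 in Stag2-/- cells, or 0.9, 0.15, 0.15 and 0.36 after adjustment over the 6 comparisons. This test ignores the replicate numbers, and with 3 libraries against 3 it cannot go below 0.1. Within same-numbered libraries, a comparison also chosen after the data were seen, siStag1 shifted the log2 ratio by 0.47, 0.39 and 0.35 in replicates 1, 2 and 3 of Stag2-/- cells (mean 0.40, SD 0.064) and by 0.43, 0.35 and 0.37 in those of wild-type cells (mean 0.38, SD 0.043). All 6 pairs thus moved the same way, by more than the spread between pairs, and the ranges of the 2 genotypes overlapped. The paired log2 differences between the clones (Stag1-/- minus Stag2-/-) were -1.13, -0.86 and -1.12, and those of Stag1-/- against wild-type siGLO were 0.092, 0.047 and -0.050. The exact two-sided sign-flip test gave p = 0.25, the smallest it can give with 3 pairs, for the first 3 of these comparisons and p = 0.75 for the last.

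**Figure D3:**
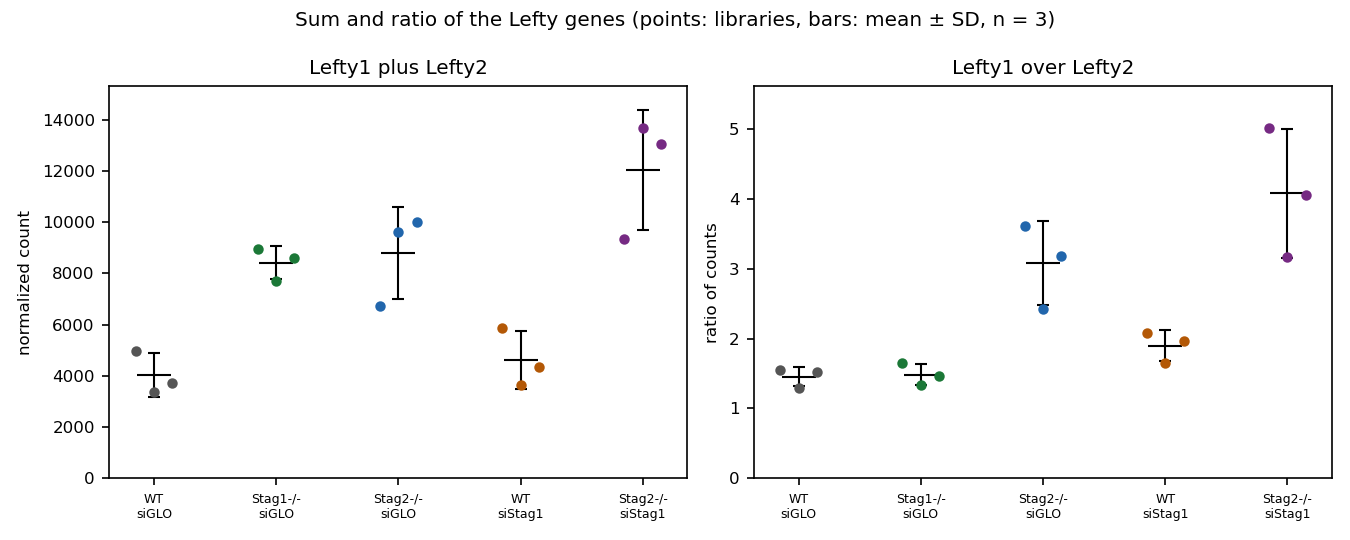
Summed normalized count of Lefty1 and Lefty2 (left) and ratio of Lefty1 to Lefty2 counts (right), both from 0, in the 15 libraries by condition. Coloured points are libraries and black bars the mean ± SD of 3 replicates. Stag1-/- has about the same sum as Stag2-/- (8415 and 8798) but a mean ratio of 1.49 against 3.08.

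Fst, which encodes the activin antagonist follistatin, was the member that moved in opposite directions in the 2 clones. Normalized Fst counts were 77.4, 40.6 and 46.4 in wild-type siGLO, 19.6, 14.6 and 18.04 in Stag1-/-, 64.4, 125 and 118 in Stag2-/-, 33.7, 29.4 and 22.2 in wild-type siStag1, and 32.5, 20.8 and 27.2 in Stag2-/- siStag1. The Stag1-/- libraries were the 3 lowest and did not overlap with any other condition, and Stag2-/- overlapped with wild-type siGLO only through its replicate 1 and wild-type replicate 1. These are small counts, 15 to 20 reads per library in Stag1-/- and 61 to 116 in Stag2-/-. Fst fell 3.14-fold in Stag1-/- (log2 fold change -1.65, SE 0.34, adjusted p = 0.00350) and rose 1.86-fold in Stag2-/- (0.90, SE 0.30, adjusted p = 0.0438 in edgeR's quasi-likelihood test). The fall held in all 6 fits without a library, whereas the rise held in 2 of 6, with log2 fold changes of 0.72 to 1.23. Between the clones Fst differed by -2.55 (SE 0.33, adjusted p = 8.93e-05), or 5.84-fold, and this held in each fit. In Stag2-/- cells siStag1 lowered it 3.80-fold (-1.93, SE 0.32, adjusted p = 0.00233), also in each fit. Against wild-type siGLO, Fst fell in Stag2-/- siStag1 (-1.03, SE 0.32, adjusted p = 0.0203), a call lost without wild-type siGLO replicate 1 (-0.69), and it was -0.95 in wild-type siStag1 (SE 0.32, adjusted p = 0.487) with no overlap between the groups. The difference between the siRNA effects was -0.97 (SE 0.45, adjusted p = 0.851) and not called. The 2 Stag2-/- libraries with 118 and 125 are again those with the high primitive streak marker sums. In replicate 3 that sum was carried by Fgf8 (338, against 38.0 in replicate 1), and the other streak markers went in both directions. Whether streak cells had a part in the rise of Fst was not tested.

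Smad7, the inhibitor that acts inside the cell, was not called against wild-type siGLO in any condition. Its normalized count was 2038 to 2580.2 in wild-type siGLO, 2680 to 2786 in Stag1-/-, 2086 to 2423 in Stag2-/-, 2218 to 2839.9 in wild-type siStag1 and 2175 to 2540.1 in Stag2-/- siStag1. In Stag1-/- all 3 libraries were above those of wild-type siGLO, the log2 fold change was 0.25 (SE 0.10, adjusted p = 0.131 in edgeR's quasi-likelihood test), and with the replicate block, where same-numbered libraries deviated together, it passed (0.25, adjusted p = 0.0200), as it did without wild-type siGLO replicate 2 (0.34, adjusted p = 0.0744). Smad7 was higher in Stag1-/- than in Stag2-/- (0.29, SE 0.10, adjusted p = 0.0662), a call that held in 1 of 6 fits without a library, over 0.25 to 0.35. The other log2 fold changes against wild-type siGLO were -0.04 in Stag2-/-, 0.12 in wild-type siStag1 and 0.04 in Stag2-/- siStag1.

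The other genes of the pathway were described from a list of 28 ligands, receptors, processing enzymes, signal transducers and repressors, of which 24 had enough counts to be tested. Against wild-type siGLO, 5 of the 24 rose and 3 fell in Stag1-/-, 3 rose and 5 fell in Stag2-/-, 0 were called in wild-type siStag1, and 7 rose and 6 fell in Stag2-/- siStag1. This can be read beside the 10.1% of all tested genes that rose and the 9.93% that fell in Stag1-/-, 13.9% and 14.4% in Stag2-/-, and 22.6% and 21.3% in Stag2-/- siStag1. The median log2 fold change of the list was 0.03, 0.01, -0.03 and 0.06 in these comparisons.

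Of the ligand and receptor genes, Inha, the inhibin alpha chain that joins a beta chain to form an activin antagonist, fell in all 3 conditions with a knockout, by 0.92, 0.93 and 1.76 on the log2 scale (Stag1-/-, Stag2-/- and Stag2-/- siStag1). Tgfbr3, the coreceptor betaglycan that inhibin uses, fell by 1.49, 1.41 and 1.35 in the same order. The type II activin receptor genes Acvr2a (log2 fold change 0.60, SE 0.16) and Acvr2b (0.43, SE 0.16) rose in Stag2-/- siStag1. Of the other secreted inhibitors, Fstl3, a relative of follistatin, rose in Stag1-/- (1.42, SE 0.34, adjusted p = 0.00950 in edgeR's quasi-likelihood test) and was higher there than in Stag2-/- (1.70, SE 0.35, adjusted p = 0.00297). Fstl3 and Fst thus changed in opposite directions in Stag1-/-.

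Proprotein convertases, the proteases that cut TGF-beta family ligands to their active forms, were called in different conditions. Furin rose in Stag1-/- (log2 fold change 0.42, SE 0.13), where Pcsk5 fell (-1.20, SE 0.44). The fall of Pcsk5 rests on small raw counts, 11, 4 and 7 in Stag1-/- against 17, 14 and 19 in wild-type siGLO. Pcsk6 fell in Stag2-/- (-0.94, SE 0.12, adjusted p = 8.62e-05) and in Stag2-/- siStag1 (-1.52, SE 0.13, adjusted p = 2.44e-07 in edgeR's quasi-likelihood test). Its normalized count was 1186, 1182 and 1175 in wild-type siGLO, 621, 641 and 586 in Stag2-/-, and 462, 425 and 348 in Stag2-/- siStag1, and it was higher in Stag1-/- than in Stag2-/- (0.89, SE 0.12, adjusted p = 0.000161).

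Among the transducers, Foxh1, the DNA-binding partner of SMAD2, rose in all 3 conditions with a knockout. Its normalized count was 576, 509 and 552 in wild-type siGLO, 772, 678 and 639 in Stag1-/-, 706, 789 and 727 in Stag2-/-, and 933, 1012 and 883 in Stag2-/- siStag1. It was 747, 761 and 682 in wild-type siStag1, where the log2 fold change of 0.42 was not called (adjusted p = 0.151 in edgeR's quasi-likelihood test). Every library of the other 4 conditions thus lay above wild-type siGLO, and in the 3 with a knockout the log2 fold changes were 0.35, 0.44 and 0.79 (adjusted p = 0.0241, 0.00489 and 1.44e-05 in edgeR's quasi-likelihood test). Smad2 fell in Stag2-/- (-0.40, SE 0.09) and Stag2-/- siStag1 (-0.60, SE 0.09), and Smad3 rose in the latter (0.41, SE 0.13).

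Of the corepressors, Skil, which holds SMADs inactive and is itself induced by them, rose by 0.64 in Stag1-/-, 0.43 in Stag2-/- and 0.91 in Stag2-/- siStag1. In wild-type siStag1 the log2 fold change of Skil was 0.34 (adjusted p = 0.649 in edgeR's quasi-likelihood test), not called, and its libraries (4902, 5106 and 4587) lay above those of wild-type siGLO (3557, 3989 and 4016) as well. Ski rose by 0.34 in Stag1-/- and 0.43 in Stag2-/- siStag1, Tgif2 by 0.22 in both Stag2-/- conditions, and Tgif1 fell in Stag2-/- siStag1 (-0.43, SE 0.11). Pmepa1, a negative regulator induced by TGF-beta signalling, fell by 0.37 in Stag2-/- and 0.57 in Stag2-/- siStag1.

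Of the target genes Mixl1, Gsc and Eomes, all 3 also streak markers, Eomes fell in both Stag2-/- conditions, and none of the 3 was called in Stag1-/- or in wild-type siStag1. Eomes, a T-box gene of the primitive streak, went from 186, 258 and 295 in wild-type siGLO to 114, 192 and 95.9 in Stag2-/- (-0.87, SE 0.24, adjusted p = 0.0180) and 94.4, 78.9 and 97.9 in Stag2-/- siStag1 (-1.44, SE 0.25, adjusted p = 0.000308 in edgeR's quasi-likelihood test). Mixl1 and Gsc were not called.

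**Figure D4:**
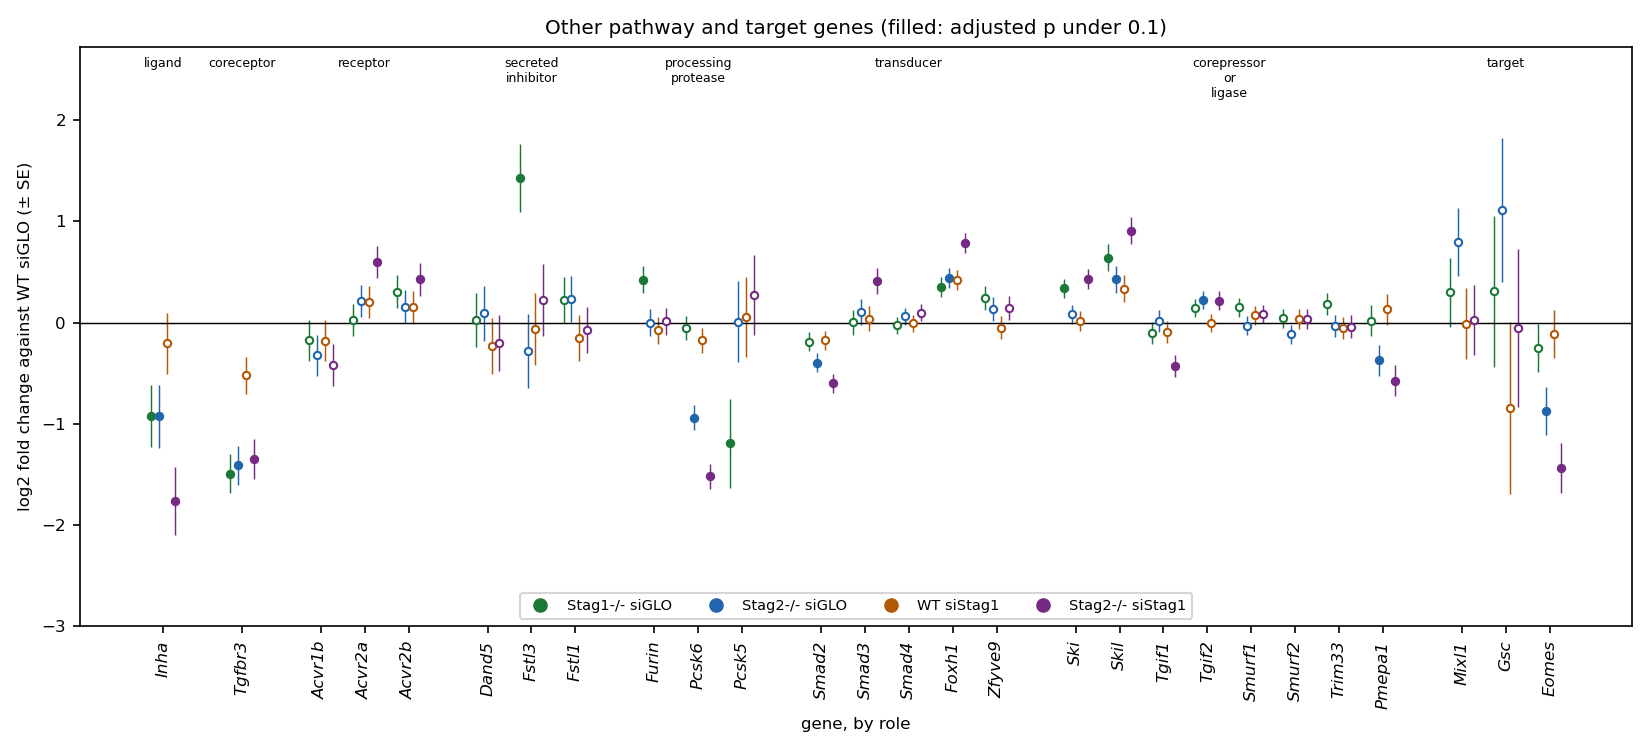
Log2 fold change against wild-type siGLO (vertical axis) with SE bars for the 24 tested genes of the pathway list and 3 target genes (horizontal axis, grouped by role) in 4 conditions (colours). Filled points have an adjusted p under 0.1. Inha and Tgfbr3 have filled points below 0 and Foxh1 and Skil above 0 in the 3 conditions with a knockout, and the open points of Foxh1 and Skil in wild-type siStag1 lie above 0 too (0.42 and 0.34).

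The gene whose log2 CPM (counts scaled to library size) followed a member most closely over the 15 libraries, restricted to genes that averaged 50 normalized counts or more, was Fgf4 for Inhbb (Pearson r = 0.983), Miat for Lefty1 (0.966), Lrrc14 for Gdf3 (0.957), Tapbp for Lefty2 (0.912), Slc18b1 for Fst (0.857), Zfp36 for Smad7 (0.847), Tnfrsf1a for Nodal (0.84) and Ldha for Tdgf1 (0.763). Each is the highest of at least 11526 values of r, and libraries of 1 condition share their clone and siRNA, so these are descriptions. Among the members, Lefty1 was most like Gdf3 (r = 0.833) and least like Inhbb (-0.862). With the mean of each condition removed, these values were 0.235 and -0.192. Lefty1 and Lefty2 had r = 0.61 over the 15 libraries and 0.771 once the mean of each condition was removed.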

How the data were processed

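PolyA RNA was sequenced by the authors as 150 bp paired-end reads in 15 libraries, 3 for each of 5 conditions. Per the labels and the methods, reads were aligned to mm10 with STAR, and the deposited values are raw counts per gene without normalization. The counting tool, annotation and use of strand are not given in the sources used here. Fst overlaps an antisense gene by 115 bp of exon, and without strand their reads could not be told apart. Rows that name no gene held 19.8% to 23.4% of a library and were left out. The 9 members, the gene lists and the tests were chosen with earlier results of these data known.

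edgeR 4.0.16 in R 4.3.3 was run on the counts (filterByExpr with a minimum count of 10 and total of 15, TMM, glmQLFit over all 15 libraries with 1 coefficient per condition, two-sided glmQLFTest), adjusted by Benjamini-Hochberg over 14508 genes, with a threshold of 0.1. The SE is the log2 fold change divided by the square root of F, and 95% intervals are the log2 fold change ± the SE times the t quantile at the degrees of freedom of that test. No list was tested as a set. No libraries of a condition were copies, since their counts differed by more than sampling noise (chi-square over degrees of freedom 4.6 to 26.1), and the scripts were tested on simulated data. Same-numbered libraries were taken as paired in a comparison where all 3 pairs deviated together from their condition means (r above 0.1 across genes). This held for Stag1-/- against wild-type siGLO (r from 0.109 to 0.228), wild-type siStag1 against wild-type siGLO (0.134 to 0.397), Stag1-/- against Stag2-/- (0.178 to 0.239) and Stag2-/- siStag1 against Stag2-/- siGLO (0.243 to 0.628), and the pairing comes from the replicate numbers in the labels. Alternatives were RLE normalization, DESeq2 1.42.0 (Wald test), no expression filter, a replicate block, and leaving out 1 library at a time. Named genes are the members, pathway and target genes called against wild-type siGLO, the targeted genes, and the gene most like each member, and 1 gene of the target list is not reported here. Sequences and positions are from GENCODE M21 on mm10. Figures used matplotlib 3.10.9 in Python 3.11.15, and coding sequences were aligned with Biopython 1.88.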

Additional observations from a re-analysis of the deposited data

Results flagged for a closer look

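Inhbb was flagged because the effect of siStag1 differed between genotypes in a test of the difference itself. The log2 effect of siStag1 was -3.12 in Stag2-/- cells and -0.88 in wild-type cells, and the difference was -2.24 (SE 0.33, adjusted p = 0.00979 in edgeR's quasi-likelihood test), with each of 3 same-numbered pairs lower in both genotypes. Pluripotency marker sums moved with it, at 54576 to 68708 in Stag2-/- siGLO and 36065 to 44869 in Stag2-/- siStag1, against 78236 to 83860 and 69885 to 73597 in wild-type siGLO and siStag1, and 2 of the 7 markers, Esrrb (-1.49) and Klf4 (-1.11), were called in the same test. Their part in the result was not tested. Samples that lie far from the others were not sought, since each condition has 3 libraries.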

How the results depend on the processing

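RLE normalization, DESeq2, no expression filter and the replicate block left all calls of members made in the comparisons in place, and the calls they added are Inhba without a filter, in Stag2-/- against wild-type siGLO (adjusted p = 0.0339) and in Stag1-/- against Stag2-/- (adjusted p = 0.0518), Inhbb in wild-type siStag1 (DESeq2, no filter and block, 1 member called where the reported fit called 0) and, with the block, Smad7 in Stag1-/- against wild-type siGLO, Gdf3 in Stag1-/- against Stag2-/- and against wild-type siStag1 (adjusted p = 0.0359), and Lefty1 in Stag2-/- siStag1 against Stag2-/- siGLO. Stag1-/- against wild-type siStag1 (lowest r of a pair 0.0718) is not among the comparisons whose numbers pair the libraries, nor are Stag2-/- and Stag2-/- siStag1 against wild-type siGLO (0.0627 and 0.0456) and the difference of siRNA effects (-0.0505). Counts over all genes moved by more than 1.5 times under DESeq2 for wild-type siStag1 (133, from 36) and the difference of siRNA effects (102, from 23), and under the replicate block for Stag1-/- (4443), wild-type siStag1 (236), Stag2-/- siStag1 against Stag2-/- siGLO (2049, from 924), Stag1-/- against wild-type siStag1 (3850, from 2326) and the difference of siRNA effects (138). The cause was not tested. Without each library in turn, which leaves 1 group of 2 whose spread is pooled with the others, the genes called were 1915 to 2748 for Stag1-/-, 2524 to 3985 for Stag2-/- (the lowest of both without wild-type siGLO replicate 2), 1 to 15 for wild-type siStag1, 416 to 1484 for Stag2-/- siStag1 against Stag2-/- siGLO (without its replicates 3 and 1), 1464 to 2404 for Stag1-/- against wild-type siStag1 and 13 to 76 for the difference of siRNA effects (76 without Stag2-/- siStag1 replicate 1). Members called were 1 to 4 for Stag1-/- against Stag2-/-, where 3 had been called (1 without Stag1-/- replicate 2 or 3 or Stag2-/- replicate 3), and 1 to 2 for Stag1-/- against wild-type siStag1 (1 without wild-type siStag1 replicate 2). The Lefty1 and Lefty2 sum ranged from -0.012 to 0.38 in wild-type siStag1, from -0.22 to 0.040 between the clones and from 0.29 to 0.60 in Stag2-/- siStag1 against Stag2-/- siGLO, where it was called once (without Stag2-/- siStag1 replicate 1).

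Signs turned in log2 fold changes that no fit called. For Nodal in Stag1-/- against wild-type siStag1 (-0.0035) the value was 0.0022 with RLE, 0.0026 in DESeq2, 0.0043 with no filter and 0.0024 with the block, and without a filter Tdgf1 was 0.0036 in Stag1-/- and -0.0043 in the difference of siRNA effects. Over left-out libraries the ranges that cross 0 were, against wild-type siGLO, -0.034 to 0.11 (Nodal) and -0.068 to 0.038 (Tdgf1) in Stag1-/-, -0.12 to 0.052 (Smad7) and -0.077 to 0.048 (Tdgf1) in Stag2-/-, -0.26 to 0.065 (Gdf3), -0.20 to 0.10 (Lefty2) and -0.030 to 0.12 (Nodal) in wild-type siStag1, and -0.040 to 0.13 (Smad7) in Stag2-/- siStag1. They were -0.063 to 0.063 for Tdgf1 between the clones, -0.068 to 0.062 for Nodal in Stag1-/- against wild-type siStag1, and -0.10 to 0.40 for Lefty2 and -0.042 to 0.20 for Nodal in Stag2-/- siStag1 against Stag2-/- siGLO. In the difference of siRNA effects they were -0.011 to 0.43 for Lefty1, -0.054 to 0.45 for Lefty2, -0.094 to 0.15 for Nodal, -0.14 to 0.058 for Smad7 and -0.044 to 0.12 for Tdgf1. Inhba and, in Stag1-/-, Fst and Pcsk5 lie where depth limits precision.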
